A study of Drosophila melanogaster with 2 samples.

Results

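The genes for the structural proteins of the insect cuticle and the Osiris genes were almost free of reproducible Trh peaks. The set comprised every protein-coding gene of the BDGP6 annotation whose symbol starts with Cpr, Ccp84, Lcp or Twdl, or with Osi and a digit, which gave 143 of the 13945 protein-coding genes on the main chromosome arms. It held 92 cuticular protein genes of the Rebers-Riddiford family (70 named Cpr, 7 named Ccp84 and 15 named Lcp), 25 Tweedle genes and 25 Osiris genes. The symbol rule also took in the gene Cpr itself, which encodes cytochrome P450 reductase and not a cuticular protein, so counts are given with and without it. Reproducible peaks lay at 3 of the 143 genes (2.10%), which were Cpr76Ba, Cpr31A and Cpr, against 22.4% of all protein-coding genes. No gene of the Tweedle or Osiris families had one, with 25 genes in each. The share was 6.23% among 321 other genes of like span that had the sequence TATAAA upstream and a promoter GC content between the quartiles of the set. Only 77 of the 143 genes have that TATAAA, so the 321 resemble a part of the set.

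Trh (Trachealess) is a transcription factor with bHLH and PAS domains that directs the formation of the tracheae and salivary ducts and pairs with Tango on DNA that contains ACGTG. It was mapped by ChIP-seq in whole embryos of a fly strain that stably carries trh fused at its C-terminal end to GFP, with an antibody against GFP, although the antibody field of the labels names trh itself. Embryos of both sexes were collected over 0 to 24 h of development, and 2 biological replicates, numbered 1 and 3, formed the only group, with no second genotype or condition. Whole embryos mix tracheal cells with every other tissue and all embryonic stages, and the promoter that drives the fusion gene is not stated in the labels.

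The cuticle is the chitin and protein layer that epidermal, tracheal and foregut cells secrete at their outer surface, and it also forms the ridges that hold tracheal tubes open. Rebers-Riddiford proteins carry a conserved domain that binds chitin, Tweedle proteins form a second structural family in which mutations change body shape, and Osiris proteins are insect-specific proteins of membranes and secretory vesicles in cells that make cuticle. In the fly, genes of all these families stand in tandem clusters, and most Osiris genes share 1 locus, Triplo-lethal, known for its sensitivity to gene dosage.

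The sequences under the 3 reproducible summits are shown first, because they are the places where the factor was recorded at these genes. Each is the 101 bp window centred on the summit, on the plus strand of the release 6 genome (dm6), and the windows were searched on both strands for ACGTG, for TACGTG (the form most often given for Trh and Tango), for TATCGATA (a sequence of housekeeping promoters) and for TGTTTAC (a forkhead sequence), which capitals would mark. Every TACGTG also counts as a match to the shorter sequence.
Cpr76Ba, chr3L:19516674-19516774, plus strand: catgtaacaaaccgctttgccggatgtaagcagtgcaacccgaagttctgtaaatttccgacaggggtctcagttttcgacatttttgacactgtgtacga
Cpr31A, chr2L:10057354-10057454, plus strand: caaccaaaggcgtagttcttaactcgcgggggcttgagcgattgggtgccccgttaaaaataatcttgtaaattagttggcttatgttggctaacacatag
Cpr, chr2L:6338768-6338868, plus strand: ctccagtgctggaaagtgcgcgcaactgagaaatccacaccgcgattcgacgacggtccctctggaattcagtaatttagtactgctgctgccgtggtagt
None of the 4 sequences was in any of the 3 windows, which are therefore in lower case throughout. Over all 2322 reproducible summits, the windows held ACGTG in 6.68%, TACGTG in 1.89%, TATCGATA in 1.94% and TGTTTAC in 4.22% of cases, so that most windows elsewhere lacked them too. GC content was 45.5% in the window of Cpr76Ba, 44.6% in that of Cpr31A and 53.5% in that of Cpr. The median over all summits was 32.7%, and 90.4%, 89.0% and 97.9% of summit windows had a GC content at or below that of these 3.

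Promoters are shown because TATAAA, which the choice by symbol did not use, was frequent among them, though absent from most Osiris promoters. Each run covers 70 bp before to 20 bp from the transcription start site (TSS), on the strand of the gene, from the release 6 genome, and capitals mark TATAAA.
Cpr76Ba, chr3L:19518313-19518402, minus strand: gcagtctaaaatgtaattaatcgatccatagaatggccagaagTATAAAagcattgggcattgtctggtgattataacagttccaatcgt
Cpr31A, chr2L:10054143-10054232, plus strand: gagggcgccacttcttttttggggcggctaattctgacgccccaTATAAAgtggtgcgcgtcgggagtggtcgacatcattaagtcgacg
Cpr65Av, chr3L:6139955-6140044, minus strand: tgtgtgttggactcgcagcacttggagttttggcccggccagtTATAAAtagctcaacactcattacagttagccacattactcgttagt
Ccp84Aa, chr3R:6704014-6704103, plus strand: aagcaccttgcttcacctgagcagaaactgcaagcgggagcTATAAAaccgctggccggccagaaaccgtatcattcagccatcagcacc
Ccp84Ag, chr3R:6686658-6686747, plus strand: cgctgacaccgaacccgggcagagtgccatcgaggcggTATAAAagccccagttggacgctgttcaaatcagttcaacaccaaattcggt
TwdlF, chr3R:4246950-4247039, plus strand: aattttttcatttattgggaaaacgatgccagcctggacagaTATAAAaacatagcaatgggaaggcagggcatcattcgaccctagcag
TwdlM, chr3R:26619048-26619137, plus strand: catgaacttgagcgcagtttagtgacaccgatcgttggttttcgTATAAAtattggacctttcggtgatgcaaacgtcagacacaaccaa
TwdlD, chr3R:26639955-26640044, plus strand: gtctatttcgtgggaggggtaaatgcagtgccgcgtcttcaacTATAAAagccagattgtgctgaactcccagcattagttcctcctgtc
Osi7, chr3R:6248924-6249013, plus strand: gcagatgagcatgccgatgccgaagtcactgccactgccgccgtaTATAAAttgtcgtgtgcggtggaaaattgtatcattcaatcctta
Osi19, chr3R:6335292-6335381, plus strand: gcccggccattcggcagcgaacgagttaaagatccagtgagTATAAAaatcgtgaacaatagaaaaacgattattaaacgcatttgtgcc
Osi20, chr3R:6340025-6340114, plus strand: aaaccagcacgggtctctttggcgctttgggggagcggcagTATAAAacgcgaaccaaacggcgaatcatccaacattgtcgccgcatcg
Osi2, chr3R:6211119-6211208, plus strand: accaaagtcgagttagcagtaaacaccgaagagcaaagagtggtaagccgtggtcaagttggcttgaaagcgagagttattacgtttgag
Osi6, chr3R:6234638-6234727, plus strand: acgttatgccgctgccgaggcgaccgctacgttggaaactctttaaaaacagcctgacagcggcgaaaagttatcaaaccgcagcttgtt
Osi24, chr3R:6198741-6198830, plus strand: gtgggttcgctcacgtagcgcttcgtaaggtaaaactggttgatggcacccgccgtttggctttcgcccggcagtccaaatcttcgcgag
Cpr, chr2L:6338766-6338855, plus strand: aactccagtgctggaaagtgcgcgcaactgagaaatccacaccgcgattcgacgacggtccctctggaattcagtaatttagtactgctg
TATAAA on the gene's strand, with its first base 40 to 15 bp upstream of the TSS, was found at 77 of the 143 genes (53.8%, exact 95% interval 45.3 to 62.2), against 8.24% of all protein-coding genes. It is the core of the TATA box, at which the TATA-binding protein assembles the transcription machinery. The share was 58.7% of the Rebers-Riddiford genes, 60.0% of the Tweedle genes and 32.0% of the Osiris genes. In 57 of the 77 promoters the first base lay between −33 and −26, and the median position was −28.0. The promoters of Osi2, Osi6, Osi24 and Cpr lacked it, and 8 of the 25 Osiris promoters held it. The Inr-like sequence TCAGT at the TSS was at 13 genes (9.09%), beside 10.3% of all genes.

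**Figure D1:**
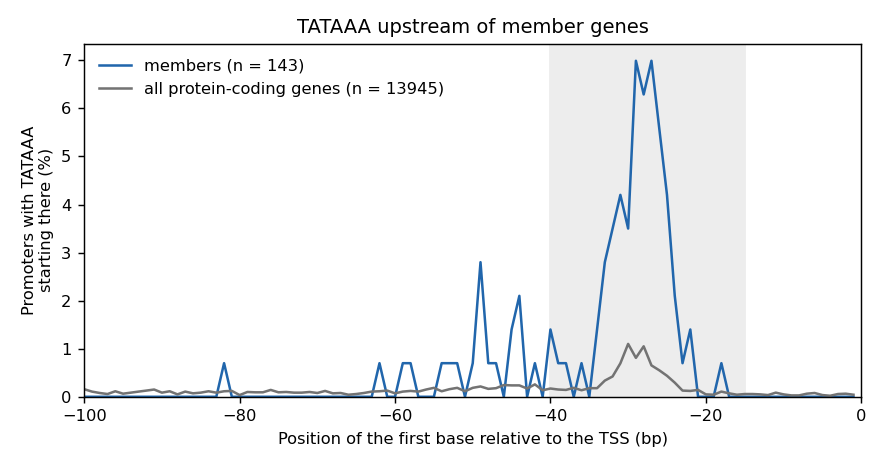
Share of promoters (%) in which TATAAA starts at each position relative to the TSS (bp), for the 143 genes of the set (blue) and all 13945 protein-coding genes (grey), with the searched window of 40 to 15 bp upstream shaded. The blue line peaks at 6.99% at −29 and −27, where the grey line stays close to 1%.

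Sequences of the kind that Trh and Tango bind were not more frequent at these genes than elsewhere. From 250 bp upstream to 50 bp downstream of the TSS, ACGTG on either strand was found in 30 promoters (21.0%, interval 14.6 to 28.6), beside 23.3% of all promoters of the same length. TACGTG was found in 4 promoters (2.80%, interval 0.767 to 7.01), beside 5.75%. These belonged to Osi24, Cpr64Ab, Cpr64Ad and Cpr66D, and the 300 bp promoter of Osi24 and 81 bp of each of the others are shown on the strand of the gene (release 6), with TACGTG or its complement CACGTA in capitals.
Osi24, chr3R:6198561-6198860, plus strand: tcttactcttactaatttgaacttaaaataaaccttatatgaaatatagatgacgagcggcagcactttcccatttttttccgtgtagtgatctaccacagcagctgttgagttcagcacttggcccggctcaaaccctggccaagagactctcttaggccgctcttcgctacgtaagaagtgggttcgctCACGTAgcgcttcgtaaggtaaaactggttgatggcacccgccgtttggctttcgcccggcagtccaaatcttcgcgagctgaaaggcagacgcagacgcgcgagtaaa
Cpr64Ab, chr3L:4211710-4211790, minus strand: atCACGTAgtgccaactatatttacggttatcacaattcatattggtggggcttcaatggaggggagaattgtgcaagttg
Cpr64Ad, chr3L:4215129-4215209, plus strand: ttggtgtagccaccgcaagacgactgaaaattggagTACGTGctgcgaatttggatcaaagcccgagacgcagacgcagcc
Cpr66D, chr3L:8640189-8640269, plus strand: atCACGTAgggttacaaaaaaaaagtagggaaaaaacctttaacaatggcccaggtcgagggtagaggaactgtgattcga
None of the 4 genes had a reproducible peak. Osi24 had a weaker peak of the pooled list with its summit 214 bp upstream of the TSS, inside the printed promoter, and its CACGTA began 155 bp from that summit towards the gene. Cpr64Ab, Cpr64Ad and Cpr66D had no peak even in the pooled list. Among 16 genomic clusters of these genes, most of them small, the counts of promoters with ACGTG varied. The highest share was 5 of the 7 Ccp84 promoters, and several clusters had none, such as the 7 promoters from Cpr47Ea to Cpr47Eg. Differences between clusters were not tested.

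TATCGATA was rarer than in the rest of the genome, with 1 promoter (0.699%, interval 0.0177 to 3.83), that of Cpr49Af, against 8.94% of all promoters. TGTTTAC was found in 7 promoters (4.90%, interval 1.99 to 9.83), beside 9.32% of all promoters. Promoter GC content had a median of 46.7% over the 143 genes and 38.0% over all protein-coding genes. The Osiris promoters were highest, with quartiles of 48.7% and 52.7%.

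The peak lists set the scale for the counts. Peaks that passed the authors' threshold on the irreproducible discovery rate (IDR), called reproducible here, numbered 2322 (17.3 per Mb of the 133.9 Mb of arms), with signal values from 74.4 to 1016.4 and a median of 110.1. The signal value is the score that the authors' peak caller gave a peak, and ranks count from the highest score within 1 list. The pooled list held 21025 peaks, the list of replicate 1 held 28743 and that of replicate 3 held 30000, and all 2322 reproducible peaks are the highest in score of the pooled list. The locus of trh itself held 1 reproducible summit. Intervals in the text are exact (Clopper-Pearson) 95% intervals and cover counting error only, and the read depth is unknown.

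Genes were counted by summits inside the annotated span or up to 2000 bp outside it. By that rule 3 of the 143 genes (2.10%, interval 0.435 to 6.01) had a reproducible peak, against 22.4% of all protein-coding genes. Without Cpr the count was 2 of 142 (1.41%). Rebers-Riddiford genes had 2 of 92 (2.17%), and the 0 of 25 Tweedle genes and 0 of 25 Osiris genes each allow a share of up to 13.7%. Within 500 bp of a TSS there was 1 gene, Cpr (0.699%), against 11.8% of all protein-coding genes, so no gene of the cuticular or Osiris families had a reproducible summit that close to its start. Inside the gene span there was none, against 7.02% of all genes. Neighbouring genes share windows, and the 143 windows merge into 68 stretches of 656.5 kb, so the genes are not independent of each other. The intervals count each gene as independent and may be too narrow. This holds most for the bound of 13.7%, since 21 Osiris genes and 12 Tweedle genes stand in 1 cluster each.

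Gene length and promoter type were counted beside these shares, since both differed from the rest of the genome. The median span was 1.11 kb over the 143 genes and 2.17 kb over all protein-coding genes. Among the 10433 other genes with a span like theirs (521 to 6261 bp), 19.7% had a reproducible peak. Among the 1072 other genes with TATAAA upstream the share was 11.9%, and among the 321 others with such a span, TATAAA and a promoter GC content of 40.3% to 49.5% it was 6.23% (20 genes, interval 3.85 to 9.46). That interval overlaps the one of the 143 genes. Inside the set, 2 of the 77 genes with TATAAA and 1 of the 66 without it had a peak. The part of span and promoter sequence in the low share was not tested.

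**Figure D2:**
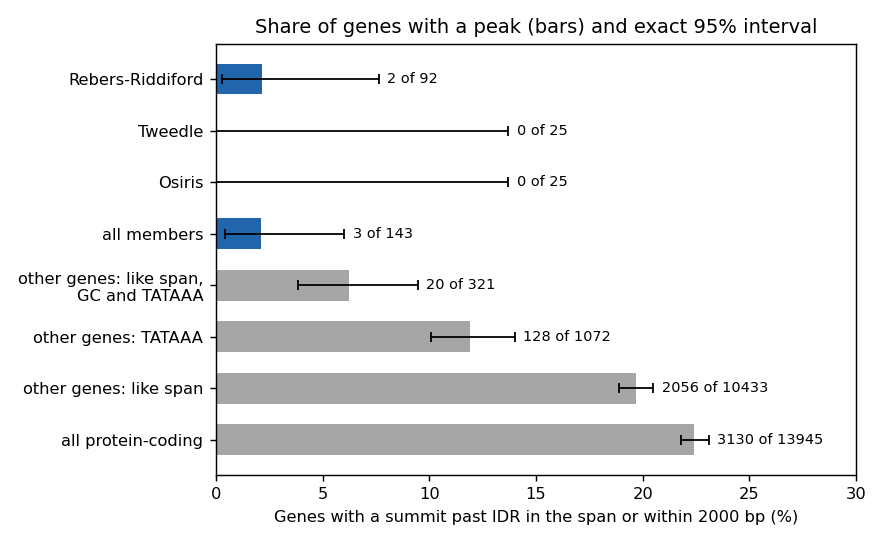
Share of genes (%) with a reproducible summit in the span or within 2000 bp, for the families (blue) and for other gene groups (grey); bars start at 0, lines are exact 95% intervals and the labels give the counts. The bar of all 143 genes stands at 2.10%, that of other genes with like span, GC content and TATAAA at 6.23%, and that of all protein-coding genes at 22.4%.

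The strongest of the 3 peaks lay past the 3′ end of Cpr76Ba, a minus-strand gene which encodes a Rebers-Riddiford cuticular protein. Its summit at 3L 19516724 (peak from 19516524 to 19516923) was intergenic, 1608 bp from the TSS of Cpr76Ba and 828 bp outside its span. The signal value was 207.0 in the pooled list (rank 282), 127.2 in replicate 1 (rank 279) and 75.6 in replicate 3 (rank 357). Both replicates thus placed it among their strongest peaks, with summits 11 and 16 bp from the pooled one. No other TSS was nearer, and the next was that of Cpr76Bb at 2925 bp, a gene of the same cluster.

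The peak at Cpr31A was nearer to another gene. Its summit at 2L 10057404 lay in an intron of Pen, which encodes an importin alpha of nuclear import, 504 bp from the TSS of Pen and 3191 bp from that of Cpr31A, past the 3′ end of that plus-strand gene. Neither cuticular gene with a reproducible peak thus had it on the promoter side. The signal value was 79.2 in the pooled list (rank 2088), 41.6 in replicate 1 (rank 2882) and 34.8 in replicate 3 (rank 1750). It stood among the lower peaks past IDR, and only replicate 3 ranked it inside its own highest 2322.

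The peak at Cpr was at a shared promoter. Its summit at 2L 6338818 lay 18 bp from the TSS of Cpr and 147 bp from that of Pez, a gene for a protein tyrosine phosphatase. The signal value was 81.9 in the pooled list (rank 1978), 60.0 in replicate 1 (rank 1452) and 20.4 in replicate 3 (rank 6315). The −log10 q value was 2.99 in replicate 1 and 0.318 in replicate 3, so the replicates differed most at this peak. Cpr76Ba was therefore the single gene of the cuticular families for which a reproducible summit was nearer to its own TSS than to that of another gene within 2000 bp of the span.

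The highest 2322 peaks of each replicate alone shared 1 gene of the set, Cpr76Ba. Replicate 1 gave 2 of the 143 genes, Cpr and Cpr76Ba, against 22.7% of all protein-coding genes. Replicate 3 gave 3 of the 143, Cpr76Ba, Cpr31A and Cpr73D, against 21.5% of all protein-coding genes. The overlap of both lists over all genes was not counted, so the 1 shared gene cannot be compared with replicate agreement elsewhere. The replicate 3 summit at Cpr73D (37.9, rank 1506) was 479 bp from the TSS of Ogdh, a gene for oxoglutarate dehydrogenase whose start lies inside the span of Cpr73D, and it ranked 6993 in replicate 1.

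The genomic clusters were then taken as units. Members on 1 arm with gaps of at most 20000 bp between them formed 16 clusters of 3 or more, which held 106 of the 143 genes and 20 other protein-coding genes on 383.5 kb (0.286% of the arms). No reproducible summit lay inside any cluster, where the density of the arms would give 6.65 over that length. The 20 other genes inside the clusters also had none within 2000 bp (interval 0 to 16.8), against 22.4% of all genes. They include the cuticular protein genes Edg78E and Acp65Aa, which are counted again in a list below. A margin of 2000 bp on each side of the clusters added 1 summit, the one at Cpr76Ba. In the pooled list the clusters held 39 summits (101.7 per Mb, against 157.0 per Mb of arms). Replicate 1 gave 49 (127.8 against 214.7 per Mb), but replicate 3 gave 88 (229.5 against 224.1 per Mb), so the low density of weaker summits was not seen in replicate 3.

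**Figure D3:**
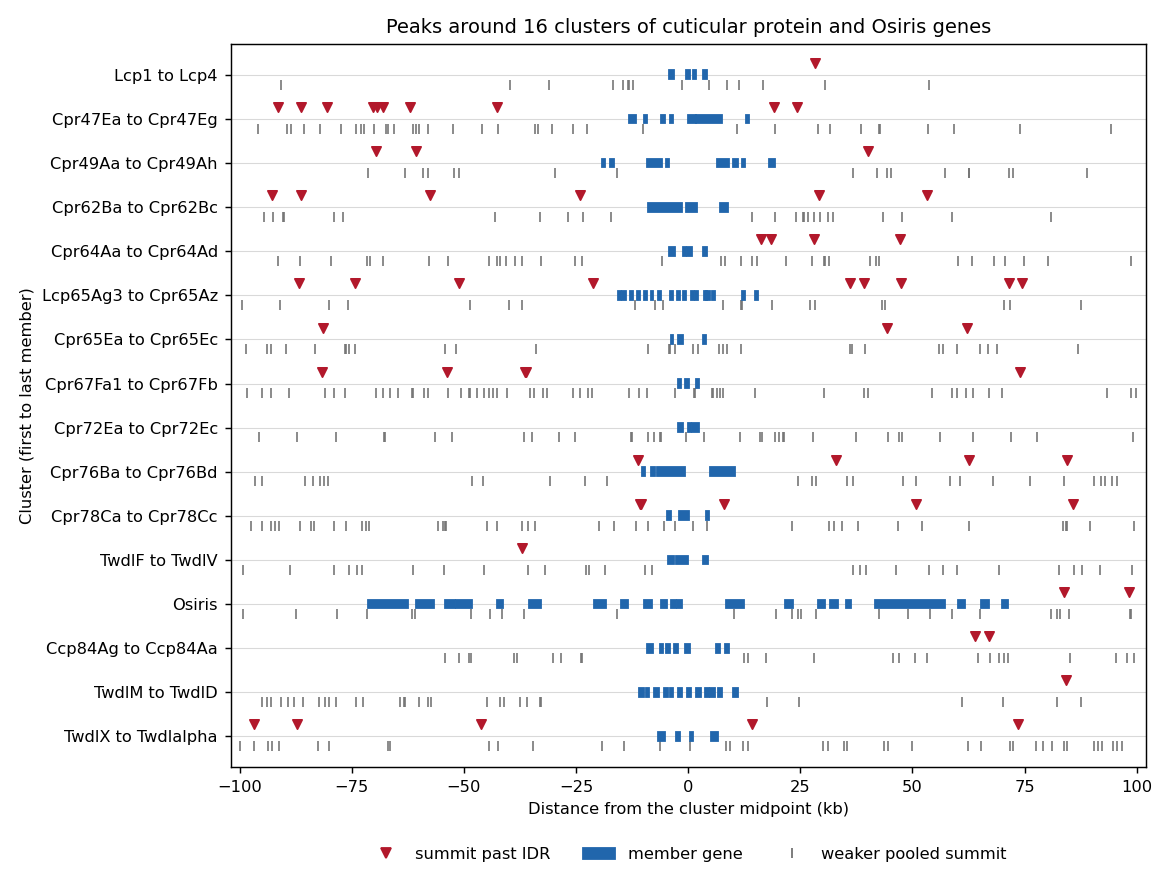
The 16 clusters, 1 per row, drawn to scale by distance from the cluster midpoint (kb, from −100 to 100), with the genes of the set as blue boxes, reproducible summits as red triangles and weaker pooled summits as grey ticks. No red triangle stands within the run of blue boxes of any row, and the nearest is 828 bp from Cpr76Ba.

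Osiris genes formed the longest cluster. It ran over 142.6 kb (3R 6198811 to 6341424) from Osi24 to Osi20 and held 21 of the 25 Osiris genes and 5 other genes. To the left the nearest reproducible summit was 407053 bp away, near Hpf1, and to the right it was 12453 bp away, 211 bp from the TSS of Pak, a gene for a p21-activated kinase. The cluster thus lay in a gap of 562.1 kb between neighbouring summits, the second longest of 2316, which spanned 67 protein-coding genes. Positions in longer gaps make up 0.984% of the length between first and last summits, a share that leaves out this gap itself. The gap was not empty in the pooled list, with 55 summits (97.8 per Mb), and the Osiris cluster itself held 18 (126.2 per Mb), the highest with a signal of 44.3.

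Tweedle genes formed 3 clusters. The largest, from TwdlM to TwdlD (3R 26619118 to 26641054, 21.9 kb), held 12 genes and had no summit even in the pooled list. The nearest reproducible summit was 73343 bp from TwdlD, 238 bp from the TSS of amon, a gene for a proprotein convertase, and the gap around the cluster was 277.6 kb. TwdlF to TwdlV, with 3 genes on 8.81 kb of 3R, also had no pooled summit, and the nearest reproducible one was 32735 bp away. TwdlX to Twdlalpha, with 4 genes on 13.3 kb of X, had 2 pooled summits, of which the higher had a signal of 32.2 at TwdlX, and a reproducible summit 7607 bp from Twdlalpha, 62 bp from the TSS of goe.

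Rebers-Riddiford genes formed 12 clusters, and the largest of them lay on 3L from Lcp65Ag3 to Cpr65Az (6130386 to 6161589, 31.2 kb, 17 genes). It had 6 pooled summits (192.3 per Mb), the highest with a signal of 57.6, and reproducible summits 5559 bp from Lcp65Ag3 and 20388 bp to the other side. This cluster holds near-identical copies. Words of 50 bases that recur elsewhere on the arms made up 15.7% of it, 2.28% of all clusters and 11.4% of sampled positions of the arms, and all words of Cpr65Ax1, Cpr65Ax2, Lcp65Ab1 and Lcp65Ab2 recurred. Reads from such copies may be missing or misplaced in a peak list, and no peak value can be assigned to 1 copy. Recurring words were not found in 118 of the 143 genes. Outside this cluster their largest shares were 48.8% of Cpr73D, 39.4% of Ccp84Aa, 35.5% of Ccp84Ab and 31.3% of TwdlL. The same limit applies to peaks, or their absence, at those genes. Over whole clusters the share was 3.88% for Ccp84Ag to Ccp84Aa and 4.62% for TwdlM to TwdlD.

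The Ccp84 cluster, from Ccp84Ag to Ccp84Aa (3R 6686728 to 6704903, 18.2 kb, 7 genes), had no pooled summit. Its nearest reproducible summit was 54800 bp from Ccp84Aa, 237 bp from the TSS of bcd, the anterior morphogen bicoid, in a gap of 255.1 kb. Clusters without a pooled summit were also Cpr62Ba to Cpr62Bc (18.0 kb), Cpr64Aa to Cpr64Ad (8.58 kb) and Cpr76Ba to Cpr76Bd (20.7 kb), all on 3L, so that 6 of the 16 had none. At Cpr64Ad the nearest reproducible summit was 11960 bp away, at ImpL2, which encodes a secreted protein that binds insulin-like peptides, and at Cpr62Ba it was 15236 bp away.

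The other Rebers-Riddiford clusters held from 1 to 3 pooled summits each. On 2R these were Lcp1 to Lcp4 (1 summit, signal 31.7 at Lcp2), Cpr47Ea to Cpr47Eg (2 summits, the higher with 65.1 and over 2000 bp from any of its genes) and Cpr49Aa to Cpr49Ah (1 summit, 26.8 in a coding exon of CG13155 beside Cpr49Ab). On 3L they were Cpr65Ea to Cpr65Ec (3 summits, up to 36.3 at Cpr65Ea, 277 bp from its TSS), Cpr67Fa1 to Cpr67Fb (2, up to 57.0), Cpr72Ea to Cpr72Ec (1, 33.9) and Cpr78Ca to Cpr78Cc (3, up to 46.6 at Cpr78Cc). Distances to the nearest reproducible summit ran from 3396 bp at Cpr78Cc and 5721 bp at Cpr47Eg over 20788 bp at Cpr49Ah, 24094 bp at Lcp4, 33885 bp at Cpr67Fa1 and 40446 bp at Cpr65Ec to 113213 bp at Cpr72Ec. The cluster of Cpr78Ca had reproducible summits close to both ends, 5887 bp away near CG12974 and 3396 bp away near CG11309, which are not in the set.

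Long gaps around the clusters were common but not general. The median gap between neighbouring summits was 21.7 kb, and 15 of the 16 clusters lay in a longer one. A position on the arms is more likely to fall in a long gap than in a short one, however, and 50% of the length lies in gaps of at least 118.1 kb. Counted that way, 8 of the 16 clusters were in gaps of at least that length. Flanking summits were within 500 bp of a protein-coding TSS in 16 of 32 cases, beside 52.3% of all 2322 reproducible summits.

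Gene by gene, distance to the nearest reproducible summit had a median of 27.8 kb over the set and 12.6 kb over all protein-coding genes. The families differed, with medians of 23.3 kb for Rebers-Riddiford, 61.5 kb for Tweedle and 85.1 kb for Osiris genes. Neighbours share their nearest summit, and 12 of the 25 Tweedle and 21 of the 25 Osiris genes stand in 1 cluster each. Within 5000 bp of a summit were 7 genes (4.90%), against 32.7% of all genes, and over 50000 bp away were 44 genes (30.8%), against 17.8%. Just outside the limit of 2000 bp stood Cpr76Bb at 2925 bp, Cpr78Cc at 3396 bp, Cpr76Bc at 4221 bp and Cpr67B at 4726 bp, and just inside it stood Cpr31A at 1469 bp.

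**Figure D4:**
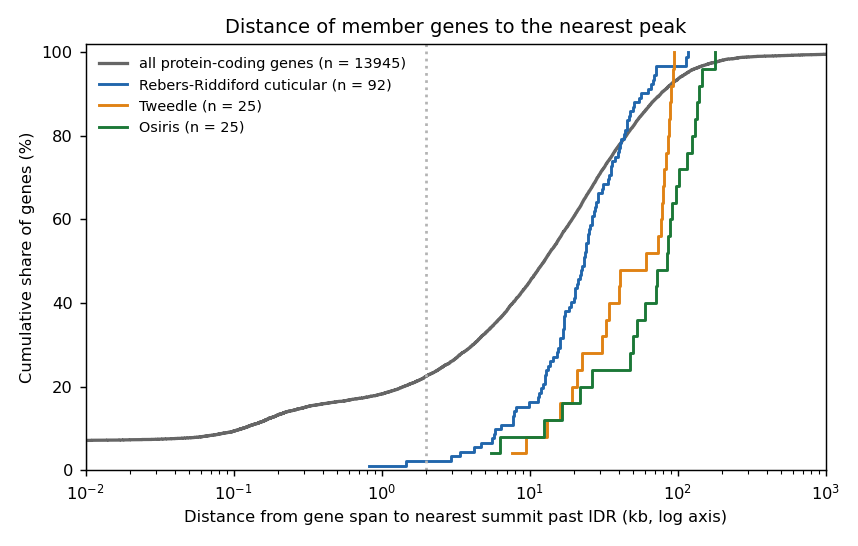
Cumulative share of genes (%) by distance from the gene span to the nearest reproducible summit (kb, log axis, with distances under 0.01 kb drawn at the left edge), for 3 families and all protein-coding genes; the dotted line marks 2000 bp. The grey line reaches 22.4% at the dotted line, the blue line 2.17%, and the orange and green lines are still at 0.

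Weaker peaks were looked for in the pooled list, which reaches down to a −log10 q of 0.0178 and so includes background by design. There 60 of the 143 genes (42.0%, interval 33.8 to 50.5) had a summit in the span or within 2000 bp, against 73.3% of all protein-coding genes. The count was 41 of 92 Rebers-Riddiford genes (44.6%), 14 of 25 Osiris genes (56.0%) and 4 of 25 Tweedle genes. Other genes with like span, GC content and TATAAA had 44.5%. Within the set the share was 40.3% of the 77 genes with TATAAA and 43.9% of the 66 without it. These genes held 81 pooled summits, of which 78 were below the IDR threshold, and 24 of the 78 (30.8%) had a summit within 100 bp in both replicate lists, beside 35.4% of all 18703 weaker pooled peaks.

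Osi24 had the highest of these weaker peaks. The signal value was 67.1 in the pooled list (rank 2765, −log10 q of 2.31), 45.5 in replicate 1 (rank 2455) and 19.6 in replicate 3 (rank 7037). Replicate 1 ranked it just outside its highest 2322 and replicate 3 much lower. It is the first gene of the Osiris cluster, and its summit, intergenic and 214 bp upstream of the TSS, lies just outside the cluster.

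Cpr73D followed with 66.6 (rank 2803), at a summit in an intron of both Cpr73D and Ogdh, 445 bp from the TSS of Ogdh. The summit with 57.6 (rank 3575) stood between Cpr65Av and Cpr65Aw, 414 bp from the TSS of Cpr65Av, and both replicates had it, with 28.1 (rank 6137) and 29.4 (rank 2401). One with 57.0 (rank 3646) lay between Cpr67Fa2 and Cpr67Fb, and it ranked 2756 in replicate 1 and 9598 in replicate 3. These summits were thus near the genes of the families at the Cpr65 and Cpr67 clusters, and near an enzyme gene at Cpr73D.

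Other weaker peaks came at Cpr51A (51.8), Cpr65Ay (51.7, 307 bp from the TSS of CG13297), Cpr66Cb (48.3), Osi2 (44.3), Osi17 (40.7), Cpr35B (38.7) and Cpr100A (38.5). That of Cpr66Cb was in its coding sequence and that of Osi17 in an intron, 3860 bp from the TSS. The nearest TSS was that of CG30197 for the peak at Cpr51A and that of Pex2 for the peak at Cpr66Cb. The −log10 q values of these peaks ran from 0.333 at Cpr100A to 1.07 at Cpr51A and Cpr65Ay, far below those past IDR. The peaks at Osi2 and Cpr100A had no match in replicate 1, and that at Cpr66Cb had none in replicate 3. Over the Osiris genes the highest pooled signal per gene had a median of 32.5 in 14 genes, and over the Tweedle genes it ran from 27.8 to 32.2 in 4. Over the Rebers-Riddiford genes the median was 33.9 in 41 genes. Of the 81 summits, 3 of them reproducible, 17 were in coding exons (21.0%), 17 in introns and 39 between genes. Of all weaker pooled peaks, 11.5% were in coding exons, 45.4% in introns and 30.2% between genes. The share of each kind of sequence in the windows of these short genes was not counted, so the comparison is not like for like.

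Summits at these genes were fewest in the highest ranks. The windows of the set cover 0.490% of the arms, and they held 0.129% of the highest 2322 pooled summits (3 summits, interval 0.0267 to 0.377), a ratio of 0.263 to the share of length. The ratio was 0.533 for ranks 2323 to 5000 (7 summits), 0.775 for ranks 5001 to 10000 (19), 1.06 for ranks 10001 to 15000 (26) and 0.880 for the rest (26). In replicate 1 the ratio was 0.176 in the highest 2322, 0.744 to rank 10000 and 0.685 after it. In replicate 3 it was 0.263, 0.956 and 1.01, so both replicates were low at the top and differed in the weaker ranks.

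**Figure D5:**
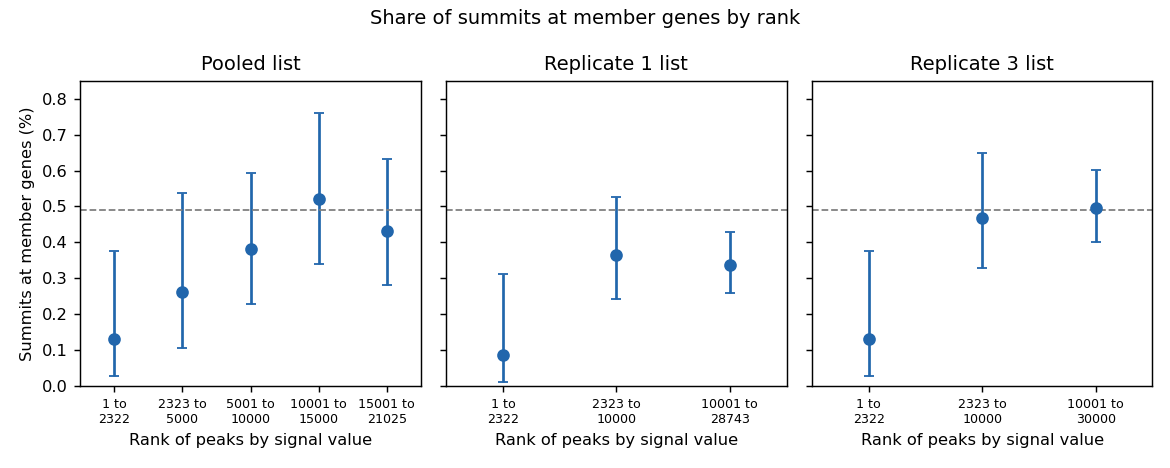
Share of summits (%) that lie at genes of the set, by rank of signal value in the pooled list and in each replicate list, with exact 95% intervals; the dashed line is the share of the arms that the windows cover, 0.490%. The point for the highest 2322 summits lies below the line in all 3 lists, at 0.129%, 0.0861% and 0.129%, and the interval of every band beyond rank 10000 reaches the line except in replicate 1.

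Genes of related function outside the symbol rule gave a wider range. Of 14 cuticular proteins with other names, such as Edg78E and Acp65Aa, 1 had a reproducible peak (7.14%, interval 0.181 to 33.9), against 22.4% of all genes. This was Pcp, a pupal cuticle protein, with a signal of 79.3 and the summit nearest to the TSS of Gart, the purine synthesis gene in whose intron Pcp lies. Of 28 genes for chitin synthesis and cuticle assembly, 3 had one (10.7%, interval 2.27 to 28.2). They were Cht7, which encodes a chitinase (128.4, 183 bp from its TSS), and pot and nyo, which encode zona pellucida domain proteins of the apical matrix (109.2 and 75.9, both in introns).

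The last list held transcription factors and nuclear receptors that act on cuticle genes, most of them long genes. Reproducible peaks lay at 13 of 19 such genes (68.4%, interval 43.4 to 87.4), beside 22.4% of all genes and 41.6% of those with a span of 20000 bp or more, and their median span was 33.4 kb. Hr3, a nuclear receptor of the ecdysone cascade, had the highest signal (305.8), at a summit whose nearest TSS was that of CG46321. Hr4, another nuclear receptor of the cascade, had 8 peaks of up to 215.9, and shn (schnurri), a zinc finger factor of Dpp signalling, had 7 of up to 164.9. The ecdysone receptor EcR had 155.8, and grh (Grainy head), a factor that controls cuticle genes and wound repair in the epidermis, had 155.7. The factor rib (ribbon), which acts in tracheal and salivary tubes, had 146.2, and the nuclear receptor Eip75B had 6 peaks of up to 135.9. The highest summit of each of these genes was in an intron. The lists hold 1 locus per gene and genes of unlike length, so the shares describe these lists alone.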

How the data were processed

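ChIP-seq peak lists of 2 replicates of 1 group were used, in narrowPeak layout and dm6 coordinates, given here 1-based. Per the deposited file lists, the authors called a relaxed list for each replicate and for the pooled replicates with 1 control alignment for both, and derived from these the list past IDR. The software behind alignment and peak calling, like the IDR threshold, is not given in the sources used here. The signal value is a score from the authors' peak caller, and the deposited −log10 q values ran from 2.80 to 3.48 in the list past IDR. No reads, coverage or depth were used. The control alignment and the dm3 lists were not analysed here.

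Genes came from the Ensembl 115 annotation (BDGP6.54), and sequences from the RefSeq release 6 genome, after chromosome lengths had been compared with the lists. Summits were placed in gene spans with 2000 bp around them. Clusters joined genes with gaps of at most 20000 bp. A replicate matched a pooled peak within 100 bp. Promoters covered 250 bp upstream to 50 bp downstream of 1 TSS per gene. Recurring words were counted at 50 bases. Shares have exact (Clopper-Pearson) 95% intervals, and no test was made, since there is 1 group and since the genes and lists were chosen with earlier results of these data known. Named genes are those with a reproducible peak, the first, last, nearest and strongest of each cluster, the 10 others with the strongest pooled peaks, the genes of the TSS nearest to those peaks, Cpr, and up to 8 of the listed cuticle genes by signal. Genes beyond this rule, such as Pcp, pot and nyo in short counts and those with TACGTG, recurring words or a printed promoter, were named after their values had been seen. In the lists, svb matched through ovo alone and obst-C did not match. The counting steps were tested on simulated data. Python 3.11.15, numpy 2.4.6, pandas 2.3.3 and scipy 1.17.1 were used. Other windows, assignments, lists, gaps and single replicates were tried as alternatives.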

Additional observations from a re-analysis of the deposited data

How the results depend on the processing

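Of 39 alternatives to 6 results, 27 kept the value, judged for counts by a limit of 1.5 times and for shares and ratios by the exact interval. Genes with a reproducible peak (3 as reported) were 0 in the span alone, beside 7.02% of all genes. The ratio of their share to that of all genes (0.0935 as reported) was 0 there. They were 7 with 5000 bp around the span (4.90%, beside 32.7% of all genes) and 1 within 500 bp of a TSS (0.699%, beside 11.8%). The 1161 highest peaks past IDR gave 1 (0.699%, beside 12.9%), and the 4644 highest pooled peaks gave 11 (7.69%, beside 35.1%). Leaving out 1 replicate gave 2 to 3 genes, beside 21.5% to 22.7% of all genes, and a ratio of 0.0616 to 0.0975. The ratio stayed between 0 and 0.219 in the alternatives counted here. They do not include the comparison with the 321 genes of like span, GC content and TATAAA (6.23%, beside 2.10% of the set), where the difference was smaller. Summits inside clusters (0) were 1 with 2000 bp on each side and 39 with all pooled peaks, and 0 without either replicate. Genes with a pooled peak (60) were 17 in the span alone (11.9%, beside 37.4% of all genes) and 92 with 5000 bp (64.3%, beside 86.5%). They were 69 without replicate 3 (48.3%, beside 80.9%) and 89 without replicate 1 (62.2%, beside 82.5%). TATAAA upstream (53.8%, beside 8.24% of all genes) became 67.1% from 100 bp upstream to the TSS, beside 15.3%. ACGTG (21.0%) became 32.9% with 500 bp upstream, beside 38.1% of all genes. The larger windows hold more sequence by construction. No paired analysis was possible because there is only 1 group. Comparisons with other genes of like promoter GC content or TATAAA, and the count of recurring words, were chosen after seeing the data. Unknown depth, 2 replicates, a shared control and recurring sequence at some copies limit what absence from these lists can show.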
